A study of Mus musculus with 45 samples.

Results

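The protein-coding genes whose symbols begin with Snrp, Sf3a, Sf3b, Lsm and a digit, or Prpf were followed through 18 RNA-seq libraries of mouse embryos and embryonic stem cells. Of the 55385 genes in the deposited tables, 50 had such a symbol, 3 of these were not protein-coding, and the remaining 47 encode proteins of the spliceosomal small nuclear ribonucleoproteins (snRNPs) or relatives of their ring proteins. By role they comprised 8 Sm genes, 5 U1 genes, 11 U2 genes, 8 genes of the LSm rings, 9 genes of U4/U6 and the tri-snRNP, 1 gene of the Prp19 complex (*Prpf19*) and 5 LSm-type genes outside the spliceosome. Proteins named Snrnp, among them components of U1 and U5, are not covered by these letters and were taken up in a separate list. Levels below are FPKM (fragments per kilobase of transcript, scaled to the depth of the library), which are per length, unless TPM is named.

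The study depleted GABPA, a transcription factor of the ETS family, with a degron: both *Gabpa* alleles carry the dTAG tag in every group, the controls included, and the small molecule dTAG13 leads the tagged protein to degradation while DMSO is the vehicle. Late two-cell embryos (3 DMSO and 3 dTAG13 libraries) were treated at 1 µM from 6 to 30 hours after fertilization, morulae (2 and 2) at 1 µM from the four-cell stage, at 42 hours, and inner cell masses at embryonic day 4.5 (E4.5 ICM, 2 and 2) at 1 µM from 84 to 100 hours. The ICM was freed of its outer trophectoderm by immunosurgery and holds both epiblast and primitive endoderm. The 2iES libraries (2 and 2) came from a clone of the E14 embryonic stem cell line grown in 2i/LIF and treated at 0.5 µM for 24 hours. Embryos were obtained by in vitro fertilization from superovulated females aged 7 to 8 weeks, of a line backcrossed to C57BL/6J. The study describes its RNA-seq replicates as biological replicates, while the sample labels do not say how the collections or cultures were separated.

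Splicing is carried out by snRNPs, each of which is a small nuclear RNA bound by proteins. U1 recognizes the 5′ splice site and U2 the branch point, and the tri-snRNP of U4, U6 and U5 then joins and is rearranged into the active enzyme. The RNAs of U1, U2, U4 and U5 are each clamped by a ring of 7 Sm proteins that the SMN complex loads in the cytoplasm, whereas U6 carries a ring of LSm2 to LSm8, and a cytoplasmic ring in which LSm1 takes the place of LSm8 acts in mRNA decay. Early embryos replace the maternal mRNA of the egg by newly transcribed and spliced mRNA.

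The libraries held 9457889 to 27660050 expected counts. *Gabpa* FPKM was higher with dTAG13 at every stage, with no overlap of libraries. Its late two-cell means were 109 in DMSO and 162 with dTAG13 (log2 fold change 0.52 ± 0.11, edgeR adjusted p = 0.0124). The means were 9.5 and 16.2 FPKM in the morula, 11.5 and 30.1 in the ICM, and 7.86 and 14.6 in 2iES. The degron acts on the protein, so the *Gabpa* mRNA does not check the depletion. Trophectoderm markers summed to 66.8 to 72.8 TPM in DMSO ICM and to 778 to 779 TPM with dTAG13, where 8 of 8 rose, 10 of 10 epiblast markers fell (859 to 884 TPM in DMSO, 509 to 515 with dTAG13), and of 9 primitive endoderm markers 6 rose and 2 fell (578 to 587 TPM, 1100 to 1110 with dTAG13). In 2iES, 4 of 10 epiblast markers fell (595 to 686 TPM in DMSO, 424 to 461 with dTAG13) and the mitochondrial share of counts was 0.371% to 2.17% in DMSO and 4.51% to 5.16% with dTAG13. This share was 3.78% to 3.88% and 5.96% to 6.02% in the ICM, 5.6% to 6.73% and 4.48% to 5.25% in the morula, and 7.72% to 9.14% and 8.78% to 10.3% in late two-cell embryos, overlapping only in the last. Maternal oocyte markers at the late two-cell stage summed to 1380 to 1390 TPM in DMSO and 1750 to 1980 TPM with dTAG13, with 1 of 8 past the test. The part of these shifts in the results below was not tested. From such bulk samples alone, fewer cells of a type and less RNA per cell cannot be told apart. For the ICM, the paper states that epiblast cell number did not yet differ between the treatments when the cells were collected.

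Most of the snRNP protein genes that changed with dTAG13 fell, and they did so at the late two-cell stage, in the ICM and in 2iES but not in the morula. In all, 10 of the 46 genes tested at the 3 responding stages fell at each of them: the Sm genes *Snrpb*, *Snrpd2* and *Snrpe*, the U2 genes *Sf3a3*, *Sf3b2*, *Sf3b4* and *Sf3b6*, and the LSm ring genes *Lsm1*, *Lsm2* and *Lsm5*. Over all 12329 genes tested at these stages 6.38% fell at each. *Lsm4* alone among the 46 rose at all 3 (0.276% of all genes). At exactly 2 of the stages 12 of the 46 fell and 4 rose, against 2315 and 1941 of the 12329. *Lsm3* and *Snrpf* passed the test at none, 2 of 46 against 1409 of 12329. Each stage had its own DMSO libraries. All 3 calls held under every alternative tried for *Snrpb*, *Snrpd2*, *Snrpe*, *Sf3b6*, *Lsm1* and *Lsm2*. For the others some calls were lost. At the late two-cell stage these were *Sf3b2*, *Sf3b4* and *Sf3a3* when single libraries were left out (*Sf3b2* without any one of the 6). In 2iES they were *Sf3b2*, *Sf3a3*, *Lsm5* and *Lsm4* without either dTAG13 library, and *Lsm4* also with limma on log2(TPM + 1). *Lsm5* was lost in the ICM and in 2iES with all 18 libraries in 1 fit, and in 2iES with the replicate number as a block. The 10 genes made up 52.6% of those that fell at the late two-cell stage, 37% of those in the ICM and 47.6% of those in 2iES. Of all genes, 786 fell at each stage, out of 1263 at the late two-cell stage, 6098 in the ICM and 4352 in 2iES. The late two-cell share of the snRNP protein genes was thus not above that of all genes.

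**Figure D1:**
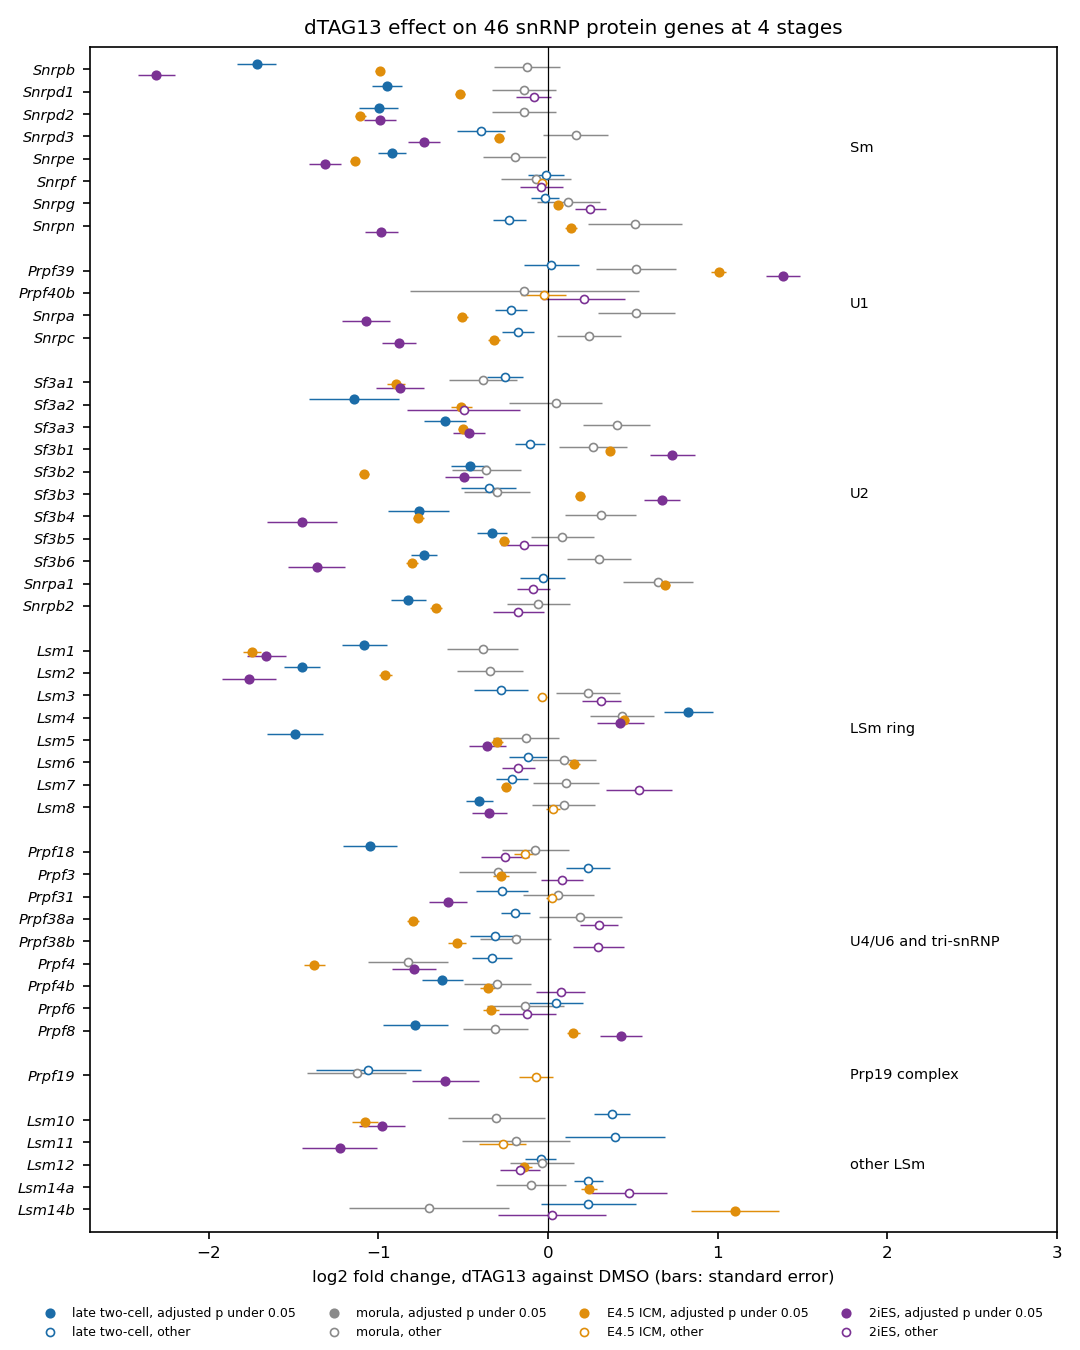
Log2 fold change (dTAG13 against DMSO, horizontal axis) of 46 of the 47 snRNP protein genes, grouped by role, with 1 point per stage; bars are standard errors and filled points have an adjusted p under 0.05. The filled points lie mostly left of 0, *Lsm4* is filled right of 0 at 3 stages, and no morula point is filled.

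GABPA binds the ETS motif, whose core is GGAA. The letters CGGAAG and the longer CCGGAAGT, which contains them, were therefore counted on both strands of RefSeq promoter windows (GRCm38.p6, 250 bases before to 50 after each start). Windows existed for 38 of the 47 genes. CGGAAG was present in 26 of their 48 windows, 54.2% (exact 95% binomial interval 39.2 to 68.6, for counting error only), and in 16.9% of all 32851 windows. CCGGAAGT was present in 8 of 48, 16.7% (7.48 to 30.2), and in 3.89% of all windows, and its 7 genes were *Lsm5*, *Prpf4b*, *Prpf6*, *Sf3a1*, *Sf3a3*, *Sf3b2* and *Snrpe*. The intervals treat windows as independent, although windows of the same gene can overlap. By gene the shares were 60.5% of the 38 for CGGAAG (18.8% of all 27025) and 18.4% for CCGGAAGT (4.31%). A match of letters is a description and not evidence of binding.

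Among protein-coding genes tested at the 3 responding stages, CGGAAG stood in the windows of 80.7% of the 615 that fell at each of them and of 34.2% of the other 8112. Over all 8727 of these genes the share was 37.5%, and 62.2% of the 37 snRNP protein genes among them, and for CCGGAAGT it was 10.1% and 18.9%, a smaller ratio than against all windows, which include genes that were not expressed. For the snRNP protein genes CGGAAG stood in 6 of the 7 with a window that fell at each stage and 17 of the other 30 (56.7%). The shares of the snRNP genes rest on few windows. The windows of the 7 genes with one, of the 10 that fell at all 3 stages, are shown because they carry the letters in different numbers, from the 130th base before the start to the 30th base after it, on the gene's strand, with CGGAAG and its reverse complement CTTCCG in capitals.
Lsm2: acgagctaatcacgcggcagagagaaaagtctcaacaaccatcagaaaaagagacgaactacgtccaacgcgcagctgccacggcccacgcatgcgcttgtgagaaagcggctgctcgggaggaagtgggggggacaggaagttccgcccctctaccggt
Lsm5: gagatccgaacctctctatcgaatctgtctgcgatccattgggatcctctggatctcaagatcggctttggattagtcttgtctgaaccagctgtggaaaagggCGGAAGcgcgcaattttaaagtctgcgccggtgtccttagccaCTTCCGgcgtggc
Sf3a3: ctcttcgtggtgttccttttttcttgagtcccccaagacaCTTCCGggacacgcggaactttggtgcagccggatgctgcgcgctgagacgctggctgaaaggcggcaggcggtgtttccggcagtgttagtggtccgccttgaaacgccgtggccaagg
Sf3b2: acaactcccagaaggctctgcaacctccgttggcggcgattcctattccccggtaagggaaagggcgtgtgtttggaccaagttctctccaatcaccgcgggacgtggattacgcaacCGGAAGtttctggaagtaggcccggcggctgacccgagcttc
Sf3b6: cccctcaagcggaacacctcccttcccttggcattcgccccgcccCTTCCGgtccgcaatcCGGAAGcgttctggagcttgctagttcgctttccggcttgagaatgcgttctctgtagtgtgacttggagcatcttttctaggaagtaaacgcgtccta
Snrpd2: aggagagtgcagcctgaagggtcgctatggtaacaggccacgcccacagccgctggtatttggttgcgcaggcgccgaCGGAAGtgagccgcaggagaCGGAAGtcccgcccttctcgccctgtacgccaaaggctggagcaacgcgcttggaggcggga
Snrpe: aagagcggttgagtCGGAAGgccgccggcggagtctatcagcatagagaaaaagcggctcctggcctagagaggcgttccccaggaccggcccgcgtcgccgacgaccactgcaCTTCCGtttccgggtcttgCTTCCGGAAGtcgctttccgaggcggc
The stretches lie at chr17:34981724-34981883 (*Lsm2*, plus strand), chr6:56704670-56704829 (*Lsm5*, minus strand), chr4:124714731-124714890 (*Sf3a3*, plus strand), chr19:5295426-5295585 (*Sf3b2*, minus strand), chr12:4817478-4817637 (*Sf3b6*, plus strand), chr7:19149708-19149867 (*Snrpd2*, plus strand) and chr1:133610251-133610410 (*Snrpe*, minus strand). That of *Snrpe* held 4 matches, of which 2 overlap, those of *Lsm5*, *Sf3b6* and *Snrpd2* held 2 each, those of *Sf3a3* and *Sf3b2* held 1 each, and that of *Lsm2* held none. No match says only that these letters are not in this stretch.

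**Figure D2:**
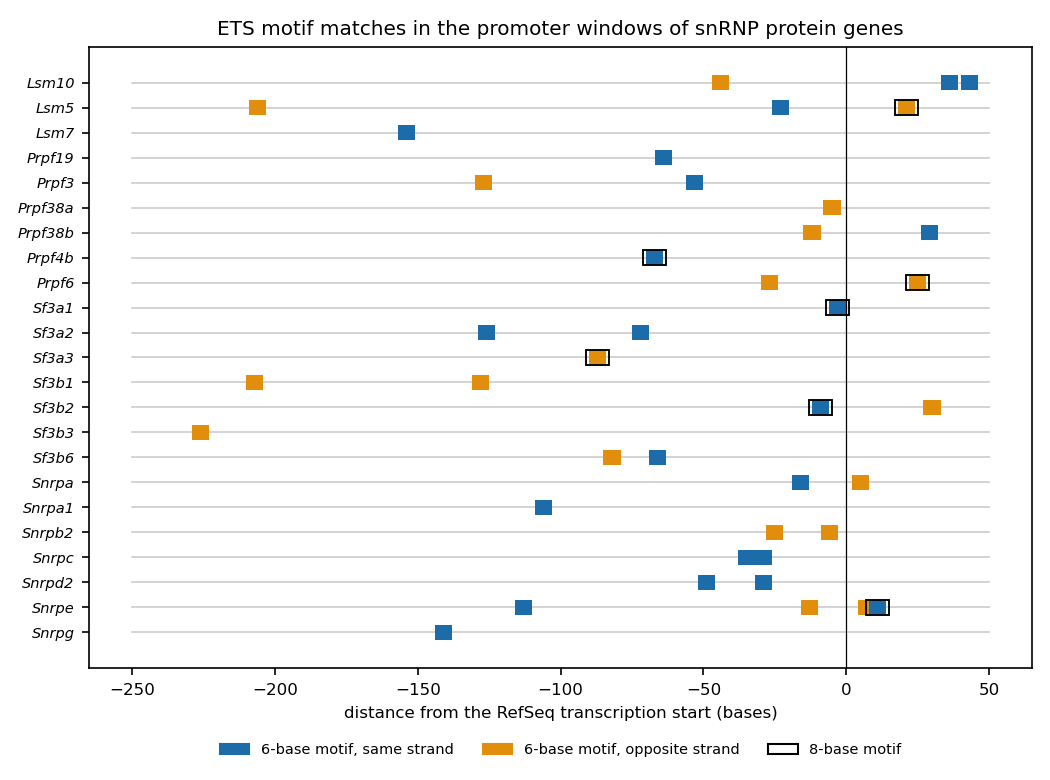
Positions of CGGAAG in the promoter window of each of the 23 snRNP protein genes that have a match (1 window per gene, horizontal axis: distance from the start site in bases); colour gives the strand and a black outline marks the longer CCGGAAGT. Most matches lie within the last 150 bases before the start, where 47.9% of the genes' windows and 10.4% of all windows hold one.

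At the late two-cell stage 19 of the 46 genes tested fell with dTAG13 (41.3%, against 7.25% of all 17421 genes tested), 1 rose (2.17%, against 1.32%) and 26 did not pass the test; *Prpf40b* was too low to be tested. Their median log2 fold change was -0.31, while that of all genes was 0.02. With a change of at least 2-fold and a mean of at least 1 FPKM also required, 6 fell (background 3.63%) and none rose (0.476%). By role, 7 of 11 U2 genes, 4 of 8 Sm genes, 4 of 8 LSm ring genes and 3 of 9 tri-snRNP genes fell. The count of genes that fell was 12 without the third dTAG13 library, and 3 rose when libraries were scaled by their totals only, where 16.7% of the calls were higher in place of 5%.

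In the morula no snRNP protein gene passed the test in either direction by edgeR's quasi-likelihood test or by DESeq2. By edgeR 6 of 47 had an unadjusted p under 0.05, a share near that of all genes (1854 of 13667). Few genes of any kind passed after adjustment (0.205% lower and 0.161% higher of 13667). The median log2 fold change of the 47 was -0.07 and that of all genes -0.02. The largest difference was at *Prpf19*, the ubiquitin ligase of the Prp19 complex, with 10.4 and 6.57 FPKM in DMSO and 4.14 and 3.15 with dTAG13 (log2 fold change -1.13 ± 0.29, adjusted p = 0.121). *Prpf4*, of the U4/U6 snRNP, had 9.85 and 7.03 FPKM in DMSO and 5.06 and 3.93 with dTAG13 (-0.83 ± 0.24, adjusted p = 0.174). In both genes the dTAG13 libraries lay below both DMSO libraries. Without the second DMSO library, 2 genes fell and 3 rose.

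In the ICM 27 of 47 genes fell (57.4%, against 38.5% of all 15840 genes tested) and 11 rose (23.4%, against 38.4%). The median was -0.28, and 0.01 over all genes. With the 2-fold and FPKM limits 6 of 47 fell, a share near the 13.2% of all genes, and 2 of 47 rose (12.1% of all genes). These counts rest on a very small spread: the ICM replicates differed by only 1.62 and 1.69 times what counting noise gives, against 2.86 to 16.2 times elsewhere, and with one estimate of the spread over all 18 libraries 17 fell and 4 rose.

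In 2iES 21 of 47 genes fell (44.7%, against 28.1% of all 15511 genes tested) and 5 rose (10.6%, against 26.5%). The median was -0.24, and 0.03 over all genes. With the 2-fold and FPKM limits 8 of 47 fell, a share near the 15.6% of all genes, and 1, *Prpf39*, rose (12.4% of all genes). The genes that rose numbered 8 without the first DMSO library, 12 without the second, 3 without either dTAG13 library and 9 with scaling by library totals, where 30% of the calls were higher in place of 19.2%.

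The summed level of the 47 genes moved the same way. At the late two-cell stage it was 9515 to 10321 TPM in DMSO and 7362 to 7819 TPM with dTAG13, in the ICM 10545 to 10600 and 8632 to 8712 TPM, and in 2iES 16546 to 16633 and 13297 to 13639 TPM. In the morula it was 11879 to 12034 TPM in DMSO and 12119 to 12259 TPM with dTAG13. The DMSO and dTAG13 libraries did not overlap at any stage, and in the morula the dTAG13 libraries were the higher ones. In late two-cell embryos the Sm genes gave the largest part of the sum of any role, with 4405 to 5032 TPM in DMSO and 3325 to 3501 TPM with dTAG13. In 2iES with dTAG13 the LSm ring genes gave more, 5596 and 5755 TPM against 5546 and 5692 TPM for the Sm genes.

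**Figure D3:**
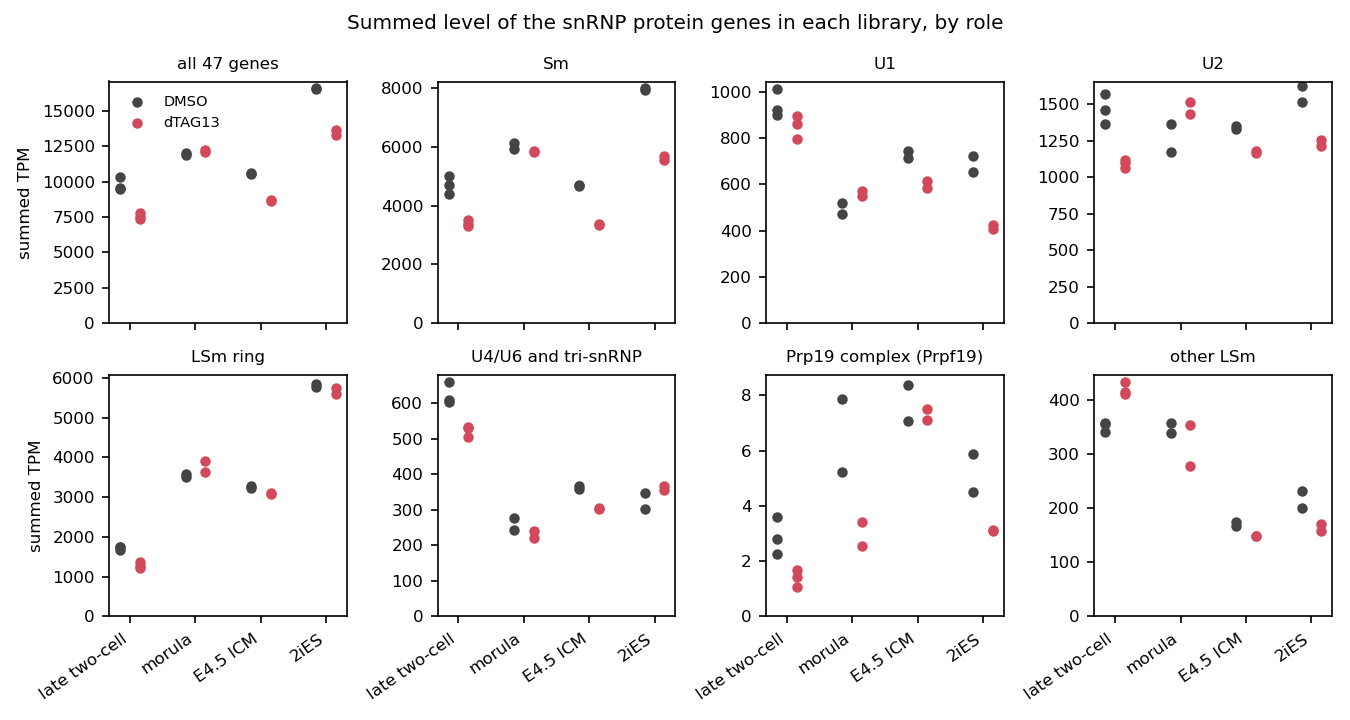
Summed TPM (vertical axis, from 0) of all 47 snRNP protein genes and of each role in every library, DMSO in grey and dTAG13 in red, by stage; each point is 1 library. The red points lie below the grey ones for all 47 genes at the late two-cell stage, in the ICM and in 2iES.

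*Snrpb* encodes SmB, a subunit of the Sm ring shared by U1, U2, U4 and U5, and had the lowest adjusted p of all these genes in late two-cell embryos and in 2iES (ENSMUSG00000027404.15, GRCm38 chromosome 2, 130171414 to 130179403, minus strand). Its DMSO levels at the late two-cell stage were 127, 143 and 127 FPKM, and its dTAG13 levels were 40.7, 40.0 and 45.7 FPKM. The groups lay far apart, with a 3.29-fold fall (log2 fold change -1.72 ± 0.12, adjusted p = 1.11e-05). In the ICM it had 604 and 604 FPKM in DMSO and 317 and 315 FPKM with dTAG13 (-0.99 ± 0.03, adjusted p = 4e-29). In 2iES it had 940 and 844 FPKM in DMSO and 179 and 188 FPKM with dTAG13, a 4.96-fold fall (-2.31 ± 0.11, adjusted p = 2.97e-05). In the morula the same gene had 612 and 735 FPKM in DMSO and 573 and 608 FPKM with dTAG13, the closest the groups came at any stage (-0.12 ± 0.19, adjusted p = 0.829).

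*Snrpe*, which encodes SmE, was among the most abundant of the 47 genes (ENSMUSG00000090553.8, chromosome 1, 133603871 to 133610291, minus strand). At the late two-cell stage it had 1847, 1996 and 2148 FPKM in DMSO and 1157, 1092 and 1052 FPKM with dTAG13 (log2 fold change -0.92 ± 0.08, adjusted p = 5.76e-05). In the ICM the levels were 1859 and 1809 FPKM against 862 and 839 FPKM, the lowest adjusted p of the 47 genes there (-1.14 ± 0.03, 6.66e-31), and in 2iES 2883 and 3015 FPKM against 1164 and 1216 FPKM (-1.32 ± 0.09, adjusted p = 0.000109). The dTAG13 level was thus between 1.89-fold and 2.49-fold lower at these stages. The morula values, 3135 and 2841 FPKM in DMSO and 2407 and 2600 FPKM with dTAG13, did not pass the test (-0.20 ± 0.19, adjusted p = 0.69). In all 4 systems every dTAG13 library lay below every DMSO library of its stage.

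*Snrpd2* (SmD2; ENSMUSG00000040824.3, chromosome 7, 19149722 to 19153542, plus strand) fell by nearly the same factor at each responding stage. It had 249, 307 and 306 FPKM in DMSO and 169, 145 and 141 FPKM with dTAG13 in late two-cell embryos (2-fold lower, standard error 0.11 on the log2 scale, adjusted p = 0.000283). In the ICM it had 229 and 226 FPKM against 110 and 110 FPKM (-1.11 ± 0.03, adjusted p = 1.07e-27) and in 2iES 336 and 334 FPKM against 168 and 177 FPKM (-0.99 ± 0.10, adjusted p = 3e-04). *Snrpd1*, its partner in the ring, fell at the late two-cell stage from 548, 561 and 630 FPKM to 340, 303 and 308 FPKM (-0.95 ± 0.09, adjusted p = 5.92e-05) and less in the ICM (-0.52 ± 0.03, adjusted p = 5.64e-18). In 2iES the *Snrpd1* groups overlapped, at 777 and 896 FPKM in DMSO and 816 and 801 FPKM with dTAG13 (-0.09 ± 0.10, adjusted p = 0.51). *Snrpd3*, encoding SmD3, fell in the ICM (-0.29 ± 0.03) and in 2iES (-0.73 ± 0.09), and its late two-cell difference of -0.40 ± 0.14 did not pass (adjusted p = 0.129).

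Not every ring subunit was lower. *Snrpg* (SmG) had 1385, 1540 and 1508 FPKM in late two-cell DMSO and 1486, 1573 and 1506 FPKM with dTAG13, and 3186 and 3459 FPKM in 2iES DMSO with 3909 and 4024 FPKM with dTAG13 (2iES log2 fold change 0.25 ± 0.09, adjusted p = 0.051), and its ICM value of 0.06 ± 0.03 (adjusted p = 0.0386) passed the test in only 4 of 11 alternatives. *Snrpf* (SmF) passed the test at no stage, but 92.1% of its transcript words of 31 bases also occur in other genes, mainly *Ccdc38* on the opposite strand, and the libraries carry no strand, so that its value is uncertain. *Snrpn* encodes SmN, a close relative of SmB known from brain and an imprinted gene. It went in different directions: it was 1.98-fold lower in 2iES (168 and 179 FPKM against 90.2 and 89.2 FPKM, adjusted p = 0.000317) and 1.10-fold higher in the ICM (adjusted p = 0.000316), with 34.5% of its words shared. Since *Snrpb* fell, the Sm gene with the lowest mean level at the late two-cell stage was *Snrpn* in DMSO (89.5 FPKM) and *Snrpb* with dTAG13 (42.1 FPKM).

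**Figure D4:**
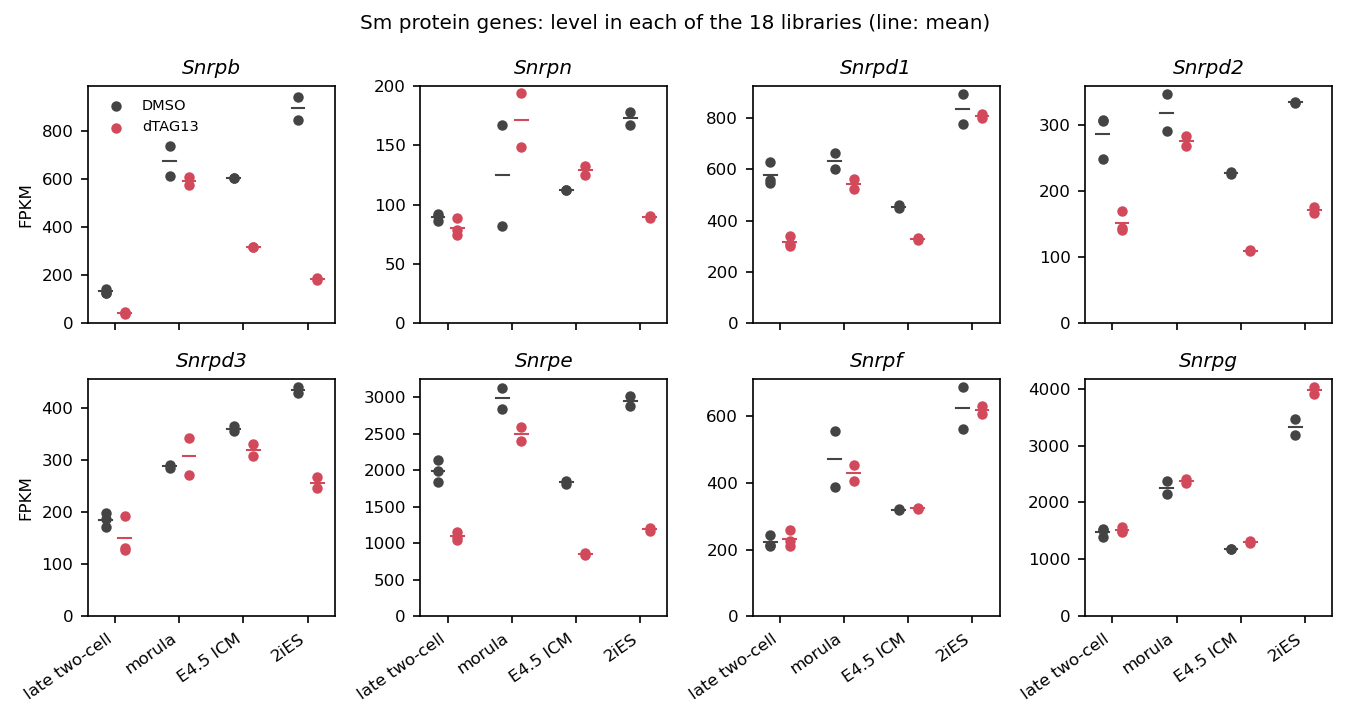
FPKM of each Sm gene (vertical axis, from 0) in all 18 libraries by stage, DMSO in grey and dTAG13 in red, with a line at each mean. *Snrpb*, *Snrpd2* and *Snrpe* are lower with dTAG13 in late two-cell embryos, in the ICM and in 2iES, while the *Snrpg* points stay close together at the late two-cell stage.

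Of the U1 genes, *Snrpa* and *Snrpc*, which encode the A and C proteins specific to U1, fell in the ICM and in 2iES. *Snrpc* had 428 and 446 FPKM in DMSO ICM and 334 and 367 FPKM with dTAG13 (-0.32 ± 0.04, adjusted p = 5.24e-10), and in 2iES 376 and 383 FPKM against 200 and 211 FPKM (-0.88 ± 0.10, adjusted p = 0.000591). *Snrpa*, with 29.9% of its words shared with other genes, changed by -0.51 ± 0.03 in the ICM and -1.07 ± 0.14 in 2iES. Neither passed at the late two-cell stage (-0.22 ± 0.10 and -0.18 ± 0.09).

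*Prpf39*, a U1-associated factor that helps U1 bind the 5′ splice site, went the other way (ENSMUSG00000035597.19, chromosome 12, 65036333 to 65063386, plus strand). It had 21.4 and 19.3 FPKM in DMSO ICM and 41.6 and 43.5 FPKM with dTAG13, a 2.01-fold rise (log2 fold change 1.01 ± 0.04, adjusted p = 5.19e-22). In 2iES it had 28.0 and 25.8 FPKM in DMSO and 70.1 and 76.0 FPKM with dTAG13, a 2.62-fold rise (1.39 ± 0.10, adjusted p = 0.000113). At the late two-cell stage its libraries overlapped, at 17.2 to 24.5 FPKM in DMSO and 21.4 to 25.1 FPKM with dTAG13 (0.02 ± 0.16, adjusted p = 0.966). *Prpf40b*, another U1-associated factor, passed at no stage at which it could be tested.

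The U2 snRNP recognizes the branch point through the SF3a and SF3b complexes, and most of its genes that changed fell, while *Sf3b1* and *Sf3b3* rose in the ICM and 2iES. *Sf3b6* encodes p14, the SF3b subunit near the branch point adenosine (ENSMUSG00000037361.8, chromosome 12, 4817544 to 4827659, plus strand). Its late two-cell levels were 686, 647 and 743 FPKM in DMSO and 415, 442 and 434 FPKM with dTAG13 (-0.73 ± 0.08, adjusted p = 0.000145). It was also lower in the ICM, with 241 and 240 FPKM against 179 and 171 FPKM (-0.80 ± 0.04, adjusted p = 4.24e-21), and in 2iES, with 304 and 488 FPKM against 160 and 165 FPKM (-1.36 ± 0.17, adjusted p = 0.000757). The groups lay apart at all 3 stages, although the DMSO libraries of 2iES spread widely.

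*Sf3b2*, another SF3b subunit, fell most in the ICM, from 165 and 172 FPKM to 80.4 and 83.5 FPKM (-1.08 ± 0.03, adjusted p = 4.68e-28). Its late two-cell value was -0.46 ± 0.11 (adjusted p = 0.0253), a call kept in 5 of 13 alternatives and lost with library totals, with limma and without any one library, and it fell in 2iES (-0.49 ± 0.11, adjusted p = 0.00945). *Sf3b4*, of which 51.2% of the words are shared with other genes, changed by -0.76 ± 0.18, -0.76 ± 0.03 and -1.45 ± 0.21 at the late two-cell stage, in the ICM and in 2iES, and *Sf3a3*, of the SF3a complex, by -0.61 ± 0.12, -0.50 ± 0.03 and -0.47 ± 0.09. The other SF3a subunits fell at 2 stages each: *Sf3a1* in the ICM (-0.90 ± 0.05) and 2iES (-0.87 ± 0.14), and *Sf3a2* in late two-cell embryos (-1.15 ± 0.27) and in the ICM (-0.51 ± 0.06). The late two-cell call of *Sf3a2*, at 2.35 to 7.12 FPKM over both groups, was kept in 9 of 13 alternatives. Its ICM call was lost with all 18 libraries in 1 fit, and 18.3% of its words are shared with other genes. *Snrpb2*, encoding the U2-specific B″ protein, fell at the late two-cell stage from 142, 146 and 132 FPKM to 83.2, 81.4 and 73.2 FPKM (-0.82 ± 0.10, adjusted p = 0.000551) and in the ICM (-0.66 ± 0.04). *Sf3b5* had values of -0.33 ± 0.09 and -0.26 ± 0.03 at the same 2 stages. Its late two-cell call was kept in only 3 of 13 alternatives and its ICM call was lost with all 18 libraries in 1 fit.

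*Sf3b1*, the large SF3b subunit that holds the branch helix, rose in the ICM from 143 and 137 FPKM to 164 and 172 FPKM (0.37 ± 0.02, adjusted p = 2.01e-16) and in 2iES from 161 and 207 FPKM to 283 and 280 FPKM (0.73 ± 0.13, adjusted p = 0.00371). *Sf3b3* rose in 2iES from 34.2 and 36.0 FPKM to 63.5 and 59.1 FPKM (0.67 ± 0.11, adjusted p = 0.00231). Its small ICM rise (0.19 ± 0.03, adjusted p = 9.45e-07), like that of *Sf3b1*, did not pass with all 18 libraries in 1 fit. Neither passed at the late two-cell stage. *Snrpa1*, encoding the U2-specific A′ protein that pairs with the B″ protein, rose in the ICM from 212 and 218 FPKM to 354 and 352 FPKM (0.69 ± 0.03, adjusted p = 2.07e-22), while its partner *Snrpb2* fell there. In 2iES the *Snrpa1* groups overlapped, at 498 and 459 FPKM in DMSO and 447 and 470 FPKM with dTAG13 (-0.09 ± 0.10, adjusted p = 0.485).

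Genes of the LSm rings moved in both directions. *Lsm2*, present in both rings, fell at the late two-cell stage from 344, 366 and 357 FPKM to 142, 138 and 114 FPKM, 2.73-fold (-1.45 ± 0.11, adjusted p = 1.64e-05; ENSMUSG00000007050.17, chromosome 17, 34981862 to 34985891, plus strand). In the ICM it went from 259 and 273 FPKM to 144 and 145 FPKM (-0.96 ± 0.04, adjusted p = 2.91e-23) and in 2iES from 566 and 418 FPKM to 143 and 154 FPKM (-1.76 ± 0.16, adjusted p = 0.000251). The morula levels were 209 and 216 FPKM against 154 and 167 FPKM, where both dTAG13 libraries were also the lower ones but the test was not passed (-0.34 ± 0.19, adjusted p = 0.461).

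*Lsm1*, the subunit that marks the cytoplasmic decay ring, lay on chromosome 8 from 25785288 to 25803975 (plus strand, ENSMUSG00000037296.7). It had 39.5, 46.8 and 44.4 FPKM in DMSO and 19.8, 24.8 and 24.0 FPKM with dTAG13 in late two-cell embryos (-1.08 ± 0.13, adjusted p = 0.000437). In the ICM it had 50.9 and 50.8 FPKM against 13.5 and 12.8 FPKM, the largest fold change of any of the 47 genes there (3.36-fold, -1.75 ± 0.05, adjusted p = 1.27e-26), and in 2iES 123 and 114 FPKM against 38.4 and 39.4 FPKM (-1.66 ± 0.11, adjusted p = 9.49e-05). *Lsm8*, which replaces LSm1 in the nuclear ring on U6, fell less at the late two-cell stage (464, 482 and 459 FPKM against 402, 355 and 364 FPKM, -0.40 ± 0.08, adjusted p = 0.0112) and in 2iES (-0.34 ± 0.10, adjusted p = 0.0284), and its ICM value of 0.03 ± 0.04 did not pass. Its late two-cell call was kept in 11 of 13 alternatives. The 2iES call was kept in 8 of 11 and lost with the replicate number as a block. *Lsm5* fell 2.81-fold at the late two-cell stage, from 147, 123 and 154 FPKM to 57.1, 41.7 and 57.0 FPKM (-1.49 ± 0.17, adjusted p = 0.00025), and less in the ICM (-0.30 ± 0.04) and in 2iES (-0.36 ± 0.11). Of its words 24.5% also occur in other genes.

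*Lsm4*, a subunit of both rings, rose at all 3 responding stages (ENSMUSG00000031848.15, chromosome 8, 70673248 to 70678752, plus strand). Its late two-cell levels were 51.0, 47.1 and 46.5 FPKM in DMSO and 89.0, 98.9 and 78.3 FPKM with dTAG13 (0.83 ± 0.14, adjusted p = 0.00431). In the ICM it had 411 and 405 FPKM against 580 and 589 FPKM (0.45 ± 0.03, adjusted p = 5.61e-17), and in 2iES 1305 and 1004 FPKM against 1559 and 1654 FPKM (0.43 ± 0.14, adjusted p = 0.036). The morula libraries lay in the same order, 349 and 366 FPKM against 460 and 491 FPKM, without passing the test (0.44 ± 0.19, adjusted p = 0.34). *Lsm3*, *Lsm6* and *Lsm7* did not pass at the late two-cell stage or in 2iES, and in the ICM *Lsm6* rose (0.15 ± 0.04) and *Lsm7* fell (-0.25 ± 0.03).

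**Figure D5:**
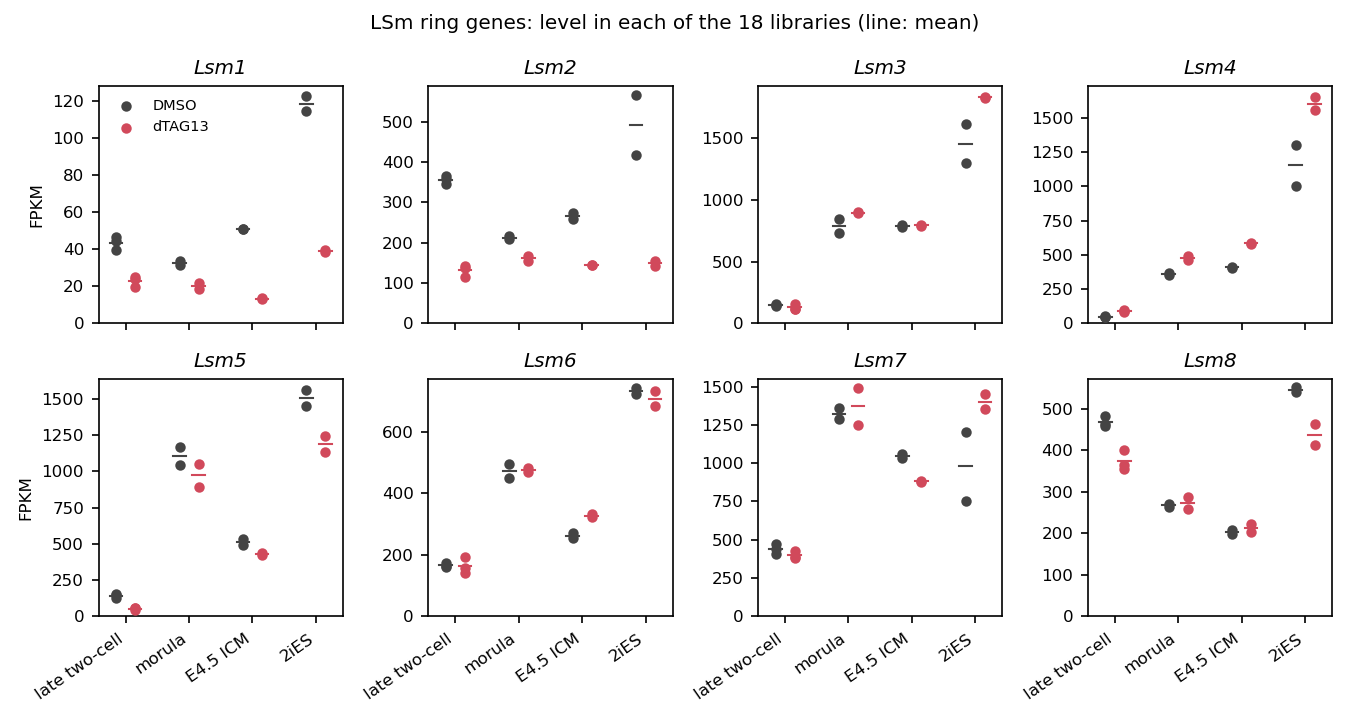
FPKM of each gene of the LSm rings (vertical axis, from 0) in all 18 libraries by stage, DMSO in grey and dTAG13 in red, with a line at each mean. *Lsm1* and *Lsm2* are lower and *Lsm4* higher with dTAG13 in late two-cell embryos, in the ICM and in 2iES.

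Among the tri-snRNP genes the calls differed between stages. *Prpf18*, a factor of the second catalytic step, fell at the late two-cell stage from 58.7, 91.1 and 79.0 FPKM to 34.8, 36.7 and 32.4 FPKM (-1.05 ± 0.16, adjusted p = 0.00181), and at no other stage did it pass. *Prpf4*, of U4/U6, fell in the ICM from 14.8 and 14.2 FPKM to 6.52 and 5.73 FPKM (-1.38 ± 0.06, adjusted p = 5.67e-21) and in 2iES from 10.8 and 12.0 FPKM to 6.87 and 6.69 FPKM (-0.79 ± 0.13, adjusted p = 0.00247). *Prpf38a*, a factor of spliceosome activation, fell in the ICM (-0.80 ± 0.04, adjusted p = 1.97e-21) with 130 and 132 FPKM against 79.6 and 78.2 FPKM, and in 2iES it had 175 and 210 FPKM in DMSO and 244 and 239 FPKM with dTAG13 (0.30 ± 0.11, adjusted p = 0.0574). *Prpf8*, the central scaffold of the active site, fell at the late two-cell stage (-0.78 ± 0.19, adjusted p = 0.0293), where its level was low, at 4.76 to 6.51 FPKM in DMSO and 2.62 to 3.90 FPKM with dTAG13. It rose in the ICM (0.15 ± 0.04, adjusted p = 0.000487) and in 2iES from 7.73 and 8.93 FPKM to 11.4 and 11.7 FPKM (0.43 ± 0.12, adjusted p = 0.0223). *Prpf8* and *Snrpn* were called in opposite directions at different responding stages, 2 of 46 genes, against 1164 of all 12329. The ICM rise of both was lost with all 18 libraries in 1 fit. The *Prpf8* calls were kept in 7 of 13 alternatives at the late two-cell stage and 7 of 11 in 2iES, lost there without either dTAG13 library.

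*Prpf4b*, a kinase of the tri-snRNP, fell at the late two-cell stage (-0.62 ± 0.12, adjusted p = 0.00798) and in the ICM (-0.36 ± 0.05). *Prpf3*, *Prpf6* and *Prpf38b* fell in the ICM (-0.28 ± 0.05, -0.34 ± 0.05 and -0.54 ± 0.05) and passed the test at no other stage. *Prpf19* fell in 2iES, from 6.91 and 5.52 FPKM to 3.99 and 4.03 FPKM (-0.60 ± 0.20, adjusted p = 0.0374). *Lsm10* and *Lsm11*, which replace SmD1 and SmD2 in the U7 snRNP that processes histone mRNA, both fell in 2iES (-0.98 ± 0.14 and -1.23 ± 0.22), and *Lsm10* also in the ICM (-1.08 ± 0.08, adjusted p = 1.36e-15). At the late two-cell stage *Lsm10* had 85.6 to 89.9 FPKM in DMSO and 123 to 127 FPKM with dTAG13, with no overlap, but did not pass (0.38 ± 0.10, adjusted p = 0.0504).

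The DMSO libraries give the course of these genes through development without depletion of GABPA, and each pair of neighbouring stages differs also in material and in collection. From the late two-cell stage to the morula 23 of 47 genes rose (48.9%, against 31.2% of all 19830 genes tested) and 18 fell (38.3%, against 38%). *Lsm4* rose 8.59-fold, from 46.5 to 51.0 FPKM to 349 to 366 FPKM (3.10 ± 0.14, adjusted p = 2.72e-09), *Lsm5* 7.98-fold (3.00 ± 0.14, adjusted p = 3.37e-09) and *Lsm3* 5.59-fold (2.48 ± 0.14, adjusted p = 1.36e-08). *Lsm10* (-2.06 ± 0.17, adjusted p = 4.8e-07) and *Prpf38a* (-1.95 ± 0.21, adjusted p = 4.41e-06) fell. The median of the 47 genes was 0.34 and that of all genes -0.28 on the log2 scale.

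From the morula to the ICM 15 rose (31.9%, against 24.6%) and 16 fell (34%, against 21%), with a median of -0.03. *Lsm12* fell 3.86-fold (-1.95 ± 0.15, adjusted p = 8.04e-07), *Lsm5* 2.46-fold (-1.30 ± 0.15, adjusted p = 2.66e-05) and *Snrpg* 2.20-fold (-1.13 ± 0.13, adjusted p = 3.13e-05). *Sf3a2* (1.87 ± 0.25, adjusted p = 8.23e-05), *Prpf3* (1.40 ± 0.18, adjusted p = 5.79e-05) and *Lsm10* (1.35 ± 0.18, adjusted p = 7.91e-05) rose. With scaling by library totals 17 rose and 12 fell (58.6% of the calls higher, in place of 48.4%), and without either DMSO library of the ICM 8 rose.

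The 2iES cells had more of these mRNAs than the ICM, which holds primitive endoderm beside the epiblast that such cells resemble: 25 rose (53.2%, against 21.9%) and 7 fell (14.9%, against 20.7%), with a median of 0.86. All 8 Sm genes and 7 of the 8 LSm ring genes were higher, among them *Snrpg* (3.94-fold, 1.98 ± 0.14, adjusted p = 8.82e-07), *Lsm8* (3.76-fold, 1.91 ± 0.13, adjusted p = 9.12e-07) and *Lsm6* (3.59-fold, 1.84 ± 0.13, adjusted p = 1.11e-06). *Sf3a2* went against them, with 42.8 and 45.5 FPKM in the ICM and 2.01 and 1.88 FPKM in 2iES (-3.88 ± 0.27, adjusted p = 1.01e-06), and *Sf3b2* was also lower (-0.93 ± 0.15, adjusted p = 0.000439). *Prpf6* fell in counts (-0.77 ± 0.19, adjusted p = 0.00616) but not in FPKM, at 30.2 in the ICM and 41.4 in 2iES, as its effective length in the tables went from 2667 to 839 bases. Scaling by library totals moved the median of all genes from 0 to -0.33 and that of the 47 genes to 0.39, with 23 higher and 13 lower calls (63.9% higher, in place of 78.1%). Without the first DMSO library of 2iES 2 fell, and without either DMSO library of the ICM 3 fell.

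Whether the effect of dTAG13 itself differed between neighbouring stages was tested as an interaction. The log2 fold change was more negative at the late two-cell stage than in the morula for 17 of 47 genes (36.2%, against 5.79% of all 21915 genes tested) and more positive for none (0.68%). *Snrpb* (difference -1.68 ± 0.16, adjusted p = 3.35e-06) and *Lsm5* (-1.45 ± 0.19, adjusted p = 7.14e-05) had the lowest p. The scaling shifts this contrast: the median of all genes was -0.11 and that of the 47 genes -0.51, and with scaling by library totals they were 0.10 and -0.27, with 11 genes more negative and 2 more positive (15.4% of the calls, in place of 0%). By DESeq2 17 were more negative and 3 more positive. Leaving out 1 library gave 10 to 21 genes more negative, with 10 without the first late two-cell DMSO library, and 11 without the first late two-cell dTAG13 library or the first morula DMSO library.

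Between the morula and the ICM 14 genes had the more negative effect in the ICM (29.8%, against 10.6%), led by *Snrpe* (difference 1.01 ± 0.15, adjusted p = 0.000142) and *Lsm1* (1.43 ± 0.21, adjusted p = 0.000152). For 1 gene the effect was more negative in the morula (2.13%, against 5.44%), *Lsm14b*, at 0.64 to 2.28 FPKM in these groups (-1.74 ± 0.58, adjusted p = 0.0495, kept in only 7 of 14 alternatives). With library totals these counts were 10 and 3 (76.9% of the calls positive, in place of 93.3%), by DESeq2 14 and 3 (82.4%), and without an ICM library 8 or 9 and 0 or 1. Between the ICM and 2iES 5 genes differed in each direction (10.6% each, against 9.93% more negative in the ICM and 7.42% more negative in 2iES). *Prpf38a* (-1.14 ± 0.26, adjusted p = 0.00515) and *Lsm7* (-0.83 ± 0.22, adjusted p = 0.016) were the more negative in the ICM, and *Snrpb* (1.27 ± 0.17, adjusted p = 0.000115) and *Lsm2* (0.76 ± 0.20, adjusted p = 0.013) in 2iES. Leaving out any of the 8 libraries of these stages moved one of these counts by more than 1.5 times, to 1 to 8 and 1 to 4 genes.

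Other genes of the splicing pathway were taken from lists made by function. Of 24 genes for assembly and maturation of snRNPs, which include the SMN complex and the arginine methylation of Sm proteins, 6 fell and none rose at the late two-cell stage, 19 fell and 3 rose in the ICM, and 19 fell and 1 rose in 2iES, where their median was -0.85. *Clns1a* encodes pICln, the chaperone that holds Sm proteins before they reach the SMN complex. It fell from 326 to 129 FPKM at the late two-cell stage (means, log2 fold change -1.41 ± 0.10), from 218 to 67.1 FPKM in the ICM (-1.71 ± 0.04) and from 399 to 31.8 FPKM in 2iES (12.7-fold, -3.67 ± 0.12). In the morula its means were 200 and 163 FPKM (-0.23 ± 0.22, adjusted p = 0.689).

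Of 30 further snRNP proteins with other symbols, 8 fell and 0 rose at the late two-cell stage, 14 fell and 10 rose in the ICM, and 13 fell and 10 rose in 2iES. *Snu13*, a U4/U6 protein that also binds small nucleolar RNAs, fell in the ICM (-1.82 ± 0.03) and 2iES (-1.94 ± 0.10) from means of 549 and 925 FPKM. Of 20 Prp19 complex and related genes 6, 13 and 8 fell and 1, 4 and 4 rose at these stages. The peptidyl-prolyl isomerase genes *Ppil1* (-2.20 ± 0.04 in the ICM and -4.20 ± 0.17 in 2iES) and *Ppie* (-1.30 ± 0.15, -1.01 ± 0.05 and -1.27 ± 0.15 at the late two-cell stage, in the ICM and in 2iES) were in this list, as were *Cwc15* (-1.93 ± 0.04 in the ICM and -2.65 ± 0.10 in 2iES), *Crnkl1* (-1.75 ± 0.08 and -1.97 ± 0.15) and *Isy1* (-1.42 ± 0.06 and -2.02 ± 0.12).

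Of 18 helicases and other factors of the catalytic steps 5, 8 and 5 fell and 0, 5 and 6 rose, *Ubl5* among the former (-1.93 ± 0.04 in the ICM and -2.85 ± 0.12 in 2iES). Of 15 proteins for branch point and 3′ splice site recognition 1, 7 and 5 fell and 0, 4 and 4 rose, and of the SR and hnRNP proteins, which regulate splice site choice, 4 of 32, 16 of 32 and 9 of 33 fell and 0, 10 and 7 rose. In the morula no gene of these lists passed the test by edgeR. There 0 to 3 genes per list had an unadjusted p under 0.05, as had 1854 of all 13667 genes tested. No list was tested against other genes, and the background shares are those given above for each stage.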

How the data were processed

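RNA was measured with SMART-Seq v4 and Nextera XT libraries, which carry no strand, sequenced as pairs of 75 bases. For the authors' quantification, reads were trimmed (Trimmomatic), mapped to GRCm38 (STAR) and assigned to genes (RSEM); the deposited tables hold expected counts (estimated counts that need not be whole), TPM and FPKM per gene, and an effective length. The 45 samples of the series include chromatin libraries, which were not analysed here. Gene identifiers were named with GENCODE vM21 (54487 matched with version, 55144 without, 241 had no name).

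The expected counts, rounded, were tested with edgeR 4.0.16 (quasi-likelihood F test, TMM scaling, R 4.3.3), after a filter that asks for 10 or more counts in a number of libraries equal to the size of the smaller group (2 for comparisons between stages and interactions), with Benjamini-Hochberg adjustment over all genes tested. "Rose" and "fell" mean an adjusted p under 0.05, and ± after a log2 fold change is its standard error, computed as the fold change divided by the square root of F. Late two-cell groups held 3 libraries and all others 2. Each dTAG13 comparison used the libraries of its stage, the DMSO comparisons all DMSO libraries, and the interactions all 18, so that DMSO comparisons and interactions share libraries. The 2-fold and FPKM 1 limits are those of the study. Alternatives were DESeq2 1.42.0, limma 3.58.1, other scalings, no filter, a replicate block, 1 fit of all libraries and leaving out each library. The scripts were tested on simulated data. Promoter letters were counted in RefSeq windows.

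The genes and lists were chosen with earlier results of these data known. Full statistics go to the genes with the lowest adjusted p, at most 5 per direction for dTAG13, 3 for DMSO and 2 for interactions, and list genes were named where they passed the study's limits at 2 or more stages in the same direction, at most 8; ties were ordered by the number of stages and the lowest adjusted p after their values were seen. Other values are descriptions by role. 1 gene is counted in the totals but not reported here by name.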

Additional observations from a re-analysis of the deposited data

Results flagged for a closer look

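Each value here was picked out because a test of the difference between the dTAG13 effects at neighbouring stages had an adjusted p under 0.05 (edgeR, Benjamini-Hochberg over 21915 genes). Neighbouring contrasts share libraries.

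Between the late two-cell stage and the morula 17 genes had the more negative effect at the late two-cell stage. *Snrpb* differed by -1.68 on the log2 scale (adjusted p = 3.35e-06) and *Lsm5* by -1.45 (adjusted p = 7.14e-05).

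Between the morula and the ICM 14 genes had the more negative effect in the ICM and 1 in the morula. *Snrpe* differed by 1.01 (adjusted p = 0.000142), *Lsm1* by 1.43 (adjusted p = 0.000152) and *Lsm14b*, a gene of low level, by -1.74 (adjusted p = 0.0495). The *Lsm14b* call was kept in only 7 of 14 alternatives, those of *Snrpe* and *Lsm1* in all 14.

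Between the ICM and 2iES 5 genes were more negative in the ICM and 5 in 2iES. *Prpf38a* differed by -1.14 (adjusted p = 0.00515) and *Lsm7* by -0.83 (adjusted p = 0.016), and *Snrpb* by 1.27 (adjusted p = 0.000115) and *Lsm2* by 0.76 (adjusted p = 0.013). The ICM libraries also differed in trophectoderm markers, from 66.8 to 72.8 TPM in DMSO to 778 to 779 TPM with dTAG13, whose part in these differences was not tested.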

How the results depend on the processing

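No gene given full statistics changed direction, but several medians near 0 did, among them that of the snRNP genes from -0.07 to 0.01 in the morula with all 18 libraries in 1 fit, and from -0.03 to 0.08 from the morula to the ICM with library totals, and that of all genes from -0.11 to 0.10 for the late two-cell stage against the morula with library totals. Of 578 values of the genes given full statistics under the alternatives, 551 kept their direction and side of the threshold and 27 kept only the direction. All alternatives kept the call of 12 of 20 genes at the late two-cell stage, 21 of 38 in the ICM, 18 of 26 in 2iES, 34 of 41, 18 of 31 and 25 of 32 in the DMSO comparisons from the earliest to the latest, and 10 of 17, 8 of 15 and 2 of 10 in the interactions. The cause of the shifts below was not tested. At the late two-cell stage the count of genes that rose was 1, and 2 with the size factors of DESeq2, with DESeq2 itself and with limma on log2(TPM + 1), and 3 with library totals only. In the morula no gene was called, and 1 fell with no filter on low counts, while 1 fell and 2 rose with all 18 libraries in 1 fit. In that fit 17 fell and 4 rose in the ICM, and 8 rose in 2iES, where 9 rose with library totals only. With library totals only 13 were lower in 2iES than in the ICM, in DMSO. The effect at the late two-cell stage was more negative than in the morula for 11 genes with the size factors of DESeq2 or with library totals, and more positive for 1 and 2, and for 3 by DESeq2. It was more negative in the morula than in the ICM for 3 genes with library totals or DESeq2. Between the ICM and 2iES, the genes more negative in the ICM and in 2iES numbered 3 and 8 with no filter, 8 and 9 by DESeq2, and 14 and 13 by limma voom with group variances. Leaving out 1 library gave, for genes lower and higher, 12 to 15 and 1 in late two-cell embryos, 0 to 2 and 0 to 3 in the morula, 27 to 29 and 10 to 11 in the ICM, 15 to 29 and 3 to 12 in 2iES, 15 to 18 and 22 to 23 from the late two-cell stage to the morula, 11 to 13 and 8 to 15 from the morula to the ICM, and 2 to 7 and 24 to 26 from the ICM to 2iES. For the interactions the ranges were 10 to 21 and 0 to 1, 0 to 1 and 8 to 15, and 1 to 8 and 1 to 4. Where this left 1 library in a group, that library was assumed to vary like the others. Without the 5 genes with over 20% shared words, 17 fell and 1 rose in late two-cell embryos, 24 and 10 in the ICM, and 17 and 5 in 2iES.

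The DMSO and dTAG13 libraries share replicate numbers, which pair nothing that the labels name. Deviations of same-numbered libraries correlated at 0.00749, 0.049 and 0.0444 at the late two-cell stage, where not every library correlated best with its own number, 0.00996 in the morula, 0.0102 in the ICM and -0.133 in 2iES. With the number as a replicate block 20 genes fell and 1 rose in late two-cell embryos, 2 and 0 in the morula, 27 and 11 in the ICM, and 19 and 6 in 2iES. For the interactions the block gave 16 and 0, 0 and 13, and 3 and 3. With the numbers crossed between treatments in 2iES, chosen after seeing the data, the block gave 21 lower and 10 higher.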

Other observations

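In 4 comparisons a gene moved one way in expected counts and the other way in FPKM, and their effective length in the tables differed between the groups. *Prpf31*, of the U4/U6 snRNP, fell in counts in 2iES with dTAG13 (log2 fold change -0.59, edgeR adjusted p = 0.00468), while its FPKM went from 51.6 to 70.5 and its effective length from 1714 to 857 bases. *Prpf3* fell in counts from the late two-cell stage to the morula (-1.09, adjusted p = 9.06e-05) with an effective length of 1840 and then 773 bases and 32.4 and 35.9 FPKM. *Prpf6* rose from the morula to the ICM (0.51, adjusted p = 0.0466) with 1100 and then 2667 bases and 47.8 and 30.2 FPKM, and the reverse shift to 2iES is given with that comparison. Effective length depends on which transcripts RSEM assigned reads to, which was not examined.

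The 3 genes with such symbols that are not protein-coding summed to 141 to 185 TPM in late two-cell DMSO and 90.0 to 98.3 TPM with dTAG13, and to 181 to 192 and 66.7 to 74.1 TPM in 2iES. They share sequence with coding genes, and whether their reads were told apart was not tested.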
